A study of Homo sapiens with 8 samples.

Results

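Microtubules are hollow filaments built from heterodimers of alpha- and beta-tubulin, and they carry cargo, position organelles, shape the cell and, in division, form the spindle. Gamma-tubulin starts new filaments at the centrosome, stathmin binds free dimers and promotes shrinkage, and microtubule-associated and end-binding proteins hold filaments together or ride on their growing tips. Endothelial cells rely on them for barrier control, migration and the response to mechanical load. This account covers 10 of the 16153 genes in the deposited expression table, chosen by name as tubulins and microtubule regulators. They are the alpha-tubulins TUBA1A, TUBA1B and TUBA1C, the beta-tubulins TUBB, TUBB4B and TUBB6, the gamma-tubulin TUBG1, the dimer-binding protein stathmin (STMN1), the associated protein MAP4 and the end-binding protein EB1 (MAPRE1). All 10 were present and all 10 passed the filter on low values, so none of them is missing from the counts below.

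The 8 sequenced libraries came from HMEC-1 cells, an established line of human microvascular endothelium from skin that a viral T antigen keeps dividing. Cells in 3 libraries were kept weightless aboard the International Space Station (space_microg), cells in 2 libraries flew beside them in a centrifuge giving 1 g (space_1g), and cells in 3 libraries stayed in a matching facility on Earth (ground). All groups shared the line, the gelatin-coated polymer coverslips, the medium with serum and EGF, automated culture units and fixation in an RNA preservative. The ground units were carried to the home laboratory by airline while the others travelled to orbit, and the flown cells came back to Earth after fixation, so flight and ground also differ in transport. Nothing in the labels says that replicates came from separate cultures, so every p-value below measures only the spread between libraries, which may be technical.

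Values are scaled CPM, the authors' counts per unit of sequencing depth after their scaling of each library. The libraries held 24248964 to 35388757 reads in the listed genes, and the member with the fewest reads in any library, TUBA1A, still had 2611, so counting error was small beside the spread between libraries. All 14 endothelial markers on a fixed list were listed, with a summed level of 1484 to 2636 CPM per library. Of the other lists, fibroblast and mural markers (5 of 8 listed) were not near 0, with a sum of 133 to 295 CPM. For leukocytes 1 of 5 markers was listed, with 1.04 to 2.88 CPM, and for neurons 3 of 5, with a sum of 1.78 to 7.96 CPM. On the first principal component of all genes, with 61.9% of the variance, space_1g replicate 1 (score 60.7) and ground replicate 3 (score 64.7) stood apart from the other 6 libraries (-31.1 to 1.51). These libraries bear different labels, and each comparison of member levels between groups is given with and without them.

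The tubulin messages are shown first, because their likeness decides how well single isotypes can be told apart. The first 30 coding bases of the 7 tubulins are given 5′ to 3′ from the principal GENCODE v29 transcript, with the first 4 codons in capitals; in alpha- and beta-tubulins the peptide that these codons encode is the signal by which excess free tubulin triggers decay of its own mRNA.
TUBA1A: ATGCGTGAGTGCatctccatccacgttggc
TUBA1B: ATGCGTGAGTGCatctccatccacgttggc
TUBA1C: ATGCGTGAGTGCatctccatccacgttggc
TUBB: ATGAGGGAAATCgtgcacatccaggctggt
TUBB4B: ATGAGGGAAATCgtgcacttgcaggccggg
TUBB6: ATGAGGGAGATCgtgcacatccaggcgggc
TUBG1: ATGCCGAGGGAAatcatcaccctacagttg
The 3 alpha-tubulins start with the same 30 bases, and their whole coding sequences were 95.9% to 97.2% identical in pairs. The beta-tubulins were less alike, at 80.9% to 84.4%.

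Reads from the alpha-tubulins can therefore be split or lost between copies. Of all stretches of 50 bases in the TUBA1B transcript, 62.7% also occurred in a transcript of another gene (37.2% of those of 100 bases), against 41.7% for TUBA1A and 25.1% for TUBA1C. Such stretches made up 29.9% of TUBG1, 18.2% of TUBB, 9.89% of TUBB4B and 0.993% of TUBB6. STMN1 and MAP4 had 0 of them, so their values do not share this limit. TUBA1A, TUBA1B and TUBA1C lie together on chromosome 12 of GRCh38, where TUBA1A (49184796 to 49189324, minus strand) and TUBA1C (49188736 to 49274603, plus strand) overlap by 589 bases. TUBB6 overlaps the opposite-strand gene AFG3L2 by 15377 bases. Opposite-strand genes not in the expression table under these names overlap TUBA1B (AC011603.2, 3616 bases), MAPRE1 (AL035071.2, 7278), TUBG1 (RETREG3, 948) and TUBB (AL662797.1, 773), among others. These lengths are of gene spans with introns, and TUBB6 has only 4.117 kb of annotated exon. Overlap of exons alone was not computed. Whether the counting used strand is not stated in these sources, so reads where exons overlap may be assigned to either gene. Single alpha-tubulin values are uncertain for these reasons. Reads split among these genes would not change their sum, but lost reads would lower it, and with it the ratio of alpha- to beta-tubulin.

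TUBA1B, the main alpha-tubulin of dividing cells, was the most abundant member in every library, and TUBB, the main beta-tubulin, came next. Compared per length, as scaled CPM per kilobase of annotated exon, the mean levels over 8 libraries were 715 ± 95.3 (SD) for TUBA1B, 452 ± 50.004 for TUBB and 256 ± 38.1 for TUBB4B, and the ranges of these 3 genes did not overlap each other. Below them the levels were 106 ± 22.7 for TUBB6, 94.0 ± 9.40 for TUBA1C, 74.3 ± 19.5 for STMN1, 69.1 ± 4.33 for MAPRE1, 54.0 ± 8.19 for TUBG1, 38.4 ± 6.77 for TUBA1A and 35.4 ± 3.83 for MAP4. In that lower part each gene overlapped its neighbour in range. The annotated exons of STMN1 and MAP4 together are much longer than their principal transcripts. With the length of the principal transcript, a setting chosen after seeing the data, STMN1 had 409 ± 107 CPM per kilobase and stood between TUBB (568 ± 62.9) and TUBB4B (330 ± 49.1). TUBA1B then had 1571 ± 209, TUBB6 212 ± 45.3 and TUBA1C 145 ± 14.5. MAP4, last by annotated exon, had 103 ± 11.1 and stood above TUBG1 (80.9 ± 12.3), TUBA1A (69.7 ± 12.3) and MAPRE1 (69.1 ± 4.33). The order below TUBB thus depends on which length is used.

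Among the alpha-tubulins, TUBA1B had 2554, 2361 and 3039 CPM in space_microg replicates 1 to 3, 1929 and 2732 in space_1g replicates 1 and 2, and 2756, 2346 and 2732 on the ground. The lowest library was space_1g replicate 1, and the groups overlapped. TUBA1C, a second widely expressed alpha-tubulin, had 469.6, 406 and 499 CPM in space_microg, 413 and 404 in space_1g, and 426, 380.1 and 486 on the ground. TUBA1A, the isotype best known from developing neurons, had 137, 98.9 and 133 CPM in space_microg, 139.6 and 127 in space_1g, and 139, 104 and 174 on the ground. Its highest library was ground replicate 3, and again no group stood clear of another.

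Among the beta-tubulins, TUBB had 1529.6, 1367 and 1701 CPM in space_microg, 1204 and 1631 in space_1g, and 1690.5, 1502 and 1511 on the ground. TUBB4B, another general beta-tubulin, had 524, 402 and 682 CPM in space_microg, 498 and 574 in space_1g, and 557, 506 and 576 on the ground. The weightless libraries held both its lowest and its highest value. TUBB6, a divergent beta-tubulin, had 461, 297 and 471 CPM in space_microg, 559 and 433 in space_1g, and 377, 353 and 556 on the ground. Its 2 highest libraries were space_1g replicate 1 and ground replicate 3, and its lowest was space_microg replicate 2. TUBG1, the nucleating gamma-tubulin, had 121, 104 and 155 CPM in space_microg, 131 and 143 in space_1g, and 117.9, 114 and 158 on the ground. Space_microg replicate 2 was the lowest library for TUBA1A, TUBB4B, TUBB6 and TUBG1 alike.

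Among the regulators, STMN1 varied most. It had 434, 551 and 632 CPM in space_microg, 275 and 493 in space_1g, and 527, 504 and 305 on the ground. Space_1g replicate 1 and ground replicate 3 were the 2 lowest libraries, and space_microg replicate 3 the highest, at 2.30 times the lowest. MAP4, which stabilises microtubules outside the nervous system, had 578, 474 and 429.8 CPM in space_microg, 607 and 526 in space_1g, and 511, 542 and 562 on the ground. MAPRE1, whose protein tracks growing plus ends, varied least, with 195, 189.9 and 183 CPM in space_microg, 180.4 and 181 in space_1g, and 172, 159 and 189 on the ground. The weightless libraries lay above both centrifuge libraries for MAPRE1 by a narrow margin.

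**Figure D1:**
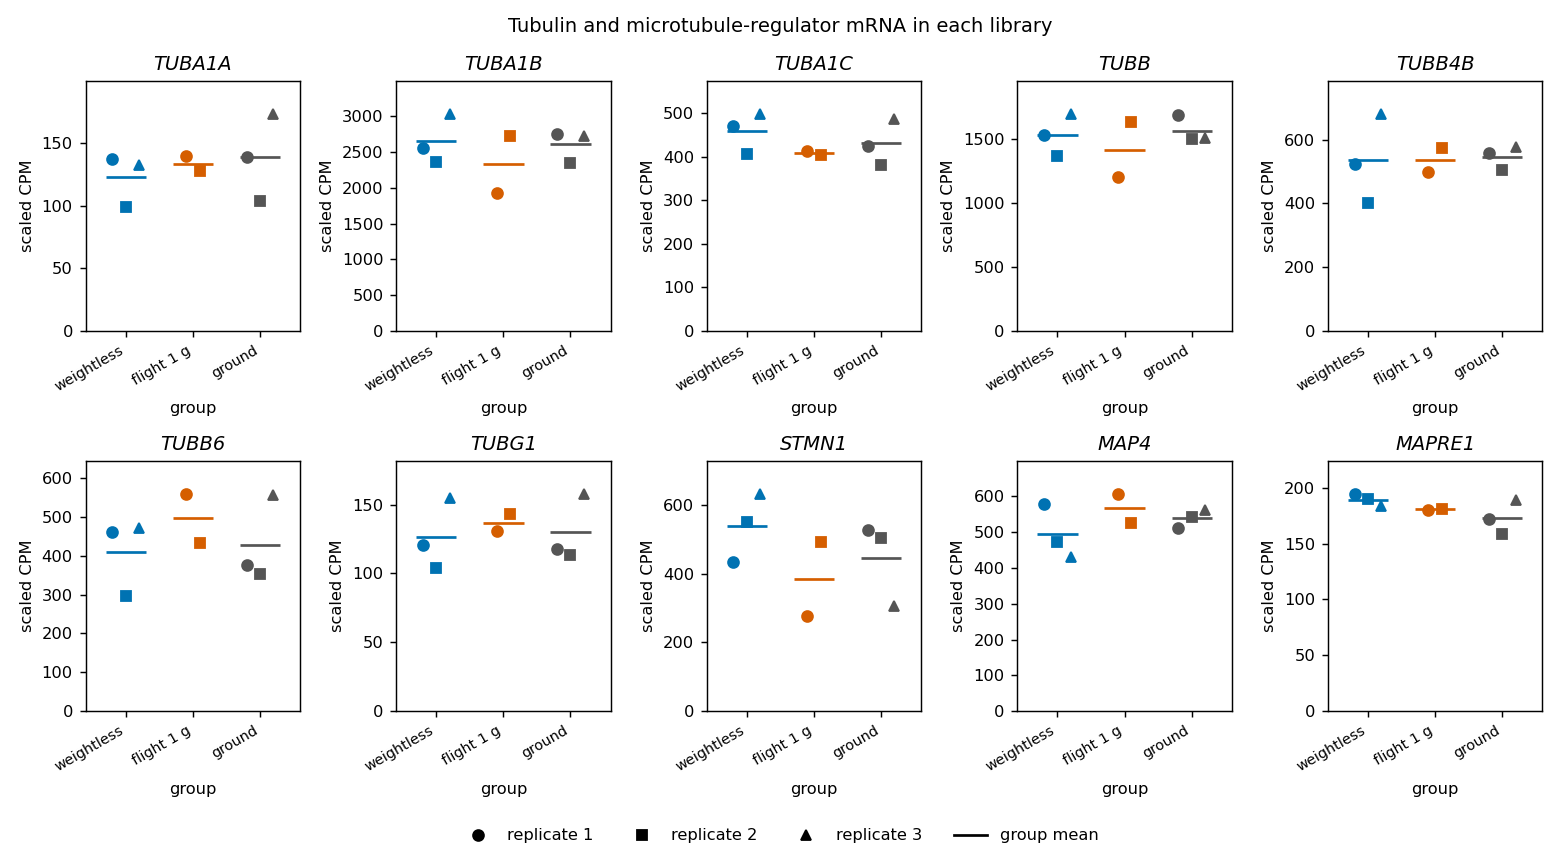
Scaled CPM (vertical axes, from 0) of each of the 10 genes in every library, by group; symbols mark the replicate number and lines the group means. Groups overlap in every panel except MAPRE1, where the weightless libraries (183 to 195) lie just above the 2 centrifuge libraries (180.4 and 181).

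The spread over the 8 libraries separated the genes more than the flight groups did. On the log2(CPM + 1) scale the SD over libraries was 0.42 for STMN1, 0.32 for TUBB6, 0.25 for TUBA1A, 0.22 for TUBB4B, 0.22 for TUBG1, 0.20 for TUBA1B, 0.17 for TUBB, 0.16 for MAP4, 0.14 for TUBA1C and 0.093 for MAPRE1. The median SD was 0.24 over the 2691 genes whose mean reached 100 CPM. STMN1 and TUBB6, the most variable members, were also the pair least alike in profile: the root mean square difference of their centred log2 values was 0.64, against a median of 0.23 over the 45 pairs of members. In space_1g replicate 1 the deviation from the gene's own mean was -0.71 for STMN1 and 0.38 for TUBB6. In ground replicate 3 it was -0.56 and 0.37.

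The profiles most alike were those of TUBA1B and TUBB, which make the main alpha-beta dimer, with a difference of 0.070. Seen from TUBA1B, TUBB ranked 5 among 11393 genes whose mean reached 5 CPM, and TUBA1B ranked 11 seen from TUBB. The transcripts of these 2 genes share no stretch of 50 bases. Outside the members, the genes most like TUBA1B over the 8 libraries were APMAP (0.047), CD99L2 (0.053), ICMT (0.060), MIS18A (0.060) and FKBP10 (0.073). Those most like TUBB were RBFA (0.047), PPP2R5D (0.058), EARS2 (0.064), ADA (0.064) and GANAB (0.066). Those most like MAP4 were MLLT6 (0.043), MCM3AP (0.049), LIMD1 (0.052), WASF2 (0.055) and COL4A5 (0.059).

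Among the nearest profiles to STMN1 were ARL15 (0.051), NUDT21 (0.062), CRIPT (0.072) and CCDC138 (0.072). The mean deviation of 20 mitotic spindle genes was -0.94 in space_1g replicate 1 and -0.60 in ground replicate 3, and 0.093 to 0.34 in the other 6 libraries. The part that this difference in spindle genes has in the STMN1 values was not tested, and in bulk RNA fewer dividing cells and less RNA per cell cannot be told apart. Over all genes tested, space_1g replicate 1 and ground replicate 3 lay both below the other 6 libraries in 21.5% and both above them in 23.6%; among the 10 members this held for 1 (STMN1, below) and for 2 (TUBA1A and TUBB6, above), which is no more often than over all genes.

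**Figure D2:**
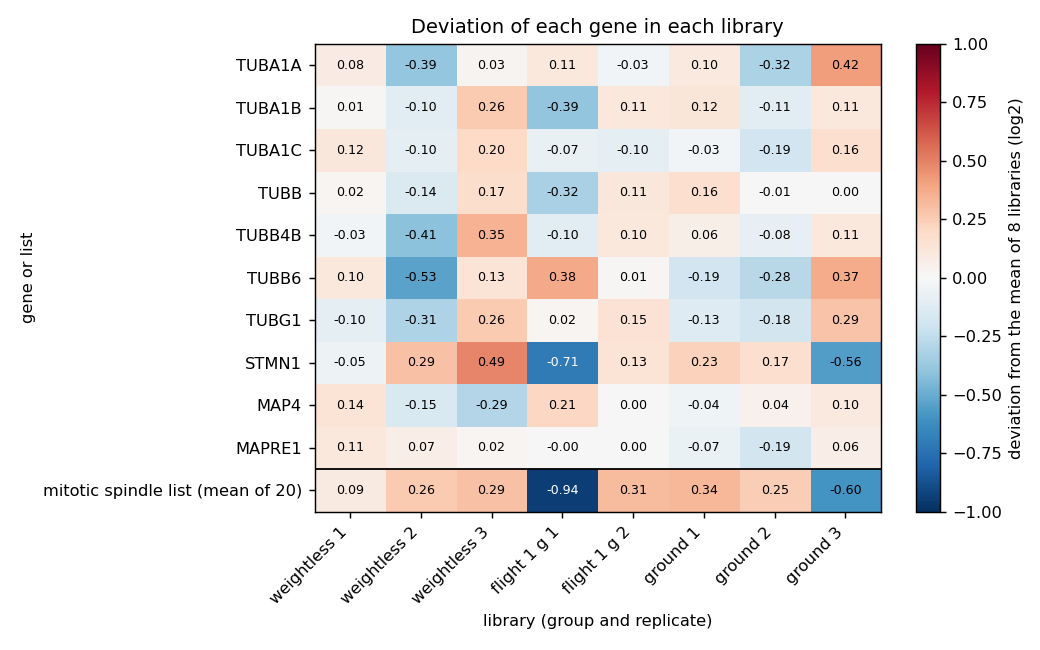
Deviation of log2(scaled CPM + 1) from the mean of the 8 libraries, by gene (vertical axis) and library (horizontal axis), with the mean deviation of 20 mitotic spindle genes at the bottom; red is above and blue below the mean. STMN1 and the spindle list are low in flight 1 g replicate 1 (-0.71 and -0.94) and ground replicate 3 (-0.56 and -0.60), while TUBB6 is high in both (0.38 and 0.37).

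The promoter of STMN1 is shown because STMN1 had the widest spread, and that of TUBG1 because it alone among the other members held the same motif. Both are RefSeq windows of GRCh38.p14, 250 bases before to 50 after an annotated start, 5′ to 3′ on the gene's strand; capitals mark TTTGGCGC, an E2F-type motif, and the CCAAT box. STMN1 has 3 such windows, of which the first is printed (chr1:25906370-25906669, minus strand); TUBG1 has 1 (chr17:42609433-42609732, plus strand).
STMN1: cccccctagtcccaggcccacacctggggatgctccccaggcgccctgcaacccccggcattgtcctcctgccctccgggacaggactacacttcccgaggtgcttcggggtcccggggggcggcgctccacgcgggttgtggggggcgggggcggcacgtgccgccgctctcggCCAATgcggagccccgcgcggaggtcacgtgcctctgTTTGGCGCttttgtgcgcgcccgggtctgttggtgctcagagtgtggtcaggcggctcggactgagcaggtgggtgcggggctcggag
TUBG1: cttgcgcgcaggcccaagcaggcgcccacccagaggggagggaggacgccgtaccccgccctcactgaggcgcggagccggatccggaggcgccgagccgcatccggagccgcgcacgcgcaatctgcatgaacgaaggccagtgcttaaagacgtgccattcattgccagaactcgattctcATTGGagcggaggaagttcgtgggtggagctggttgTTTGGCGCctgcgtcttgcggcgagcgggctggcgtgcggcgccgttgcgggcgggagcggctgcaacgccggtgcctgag
The TTTGGCGC began 38 bases upstream of the start in STMN1 and 31 in TUBG1, with a CCAAT box (read as ATTGG on the printed strand of TUBG1) 75 and 67 bases upstream. Windows were searched on both strands for TTTGGCGC, TTTCGCGC and TTTCCCGC, which 2.74% of 35116 windows of all genes held, for CCAAT, which 34.6% held, and for the CHR-type letters TTTGAA and TTCGAA, which 16.4% held; the marked motifs do not overlap in the printed windows. Of the 17 windows of the 10 members, 3 held an E2F-type motif (2 of STMN1 and 1 of TUBG1), 11 a CCAAT box and 6 a CHR-type motif, the last in TUBA1C, TUBB4B, MAP4 and MAPRE1 and in no window of STMN1 or TUBG1. These are matches of letters, and whether they act on either gene was not tested. The STMN1 and TUBG1 profiles had a root mean square difference of 0.49, against a median of 0.23 over the 45 pairs of members. In ground replicate 3 the deviation from the mean was -0.56 for STMN1 and 0.29 for TUBG1. In space_microg replicate 3 both were high, at 0.49 and 0.26.

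The mix of isotypes was examined next, because a share within a family cannot move with library scaling. Its size does depend on the length used, and shares per kilobase of the principal transcript were not computed. The alpha-tubulin shares also depend on how reads from shared stretches were assigned. Per kilobase of exon, TUBA1B made up 80.6% to 86.0% of the message of the 3 alpha-tubulins, TUBA1C 9.82% to 13.3% and TUBA1A 3.72% to 6.09%. Among the 3 beta-tubulins TUBB made up 49.1% to 60.8%, TUBB4B 28.4% to 34.2% and TUBB6 10.7% to 18.6%. The TUBB6 share was 13.7%, 10.8% and 12.1% in space_microg, 18.6% and 12.2% in space_1g, and 10.7%, 11.1% and 15.7% on the ground. Its 2 highest values came from space_1g replicate 1 and ground replicate 3, where the TUBB share was lowest, at 49.1% and 52.4%. These shares are parts of the same sum, so a higher TUBB6 share lowers the others. The level of TUBB itself deviated by -0.32 from its log2 mean in space_1g replicate 1 and by 0.0024 in ground replicate 3. TUBB2A, a further beta-tubulin named after its values were seen, was also highest in those 2 libraries. It had 74.2 and 93.3 CPM there against 25.6 to 48.3 CPM in the other 6 libraries.

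No group stood apart in these shares. In CPM, the TUBB share of the beta-tubulins was 62.2% in space_microg, 57.5% in space_1g and 61.7% on the ground, and the TUBB6 share 16.4%, 20.6% and 16.8%. The TUBA1B share of the alpha-tubulins was 82.0%, 80.7% and 82.1% in the same order. The log2 ratio of summed alpha- to summed beta-tubulin CPM was 0.33, 0.47 and 0.36 in space_microg, 0.13 and 0.31 in space_1g, and 0.34, 0.26 and 0.36 on the ground, so the weightless libraries lay above both centrifuge libraries. This difference of 0.17 had an exact two-sided permutation p of 0.2, the smallest that 3 against 2 libraries allow, and an adjusted p of 0.96 over 12 tests of shares and ratios. All 12 adjusted p-values, from exact permutation tests, were between 0.96 and 1; 3 against 3 libraries cannot go below 0.1, so none could have passed 0.05. Without both libraries that stand apart the TUBB6 share in space_microg minus ground turned from -0.38 to 1.74 percentage points and the TUBB share from 0.47 to -1.81.

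**Figure D3:**
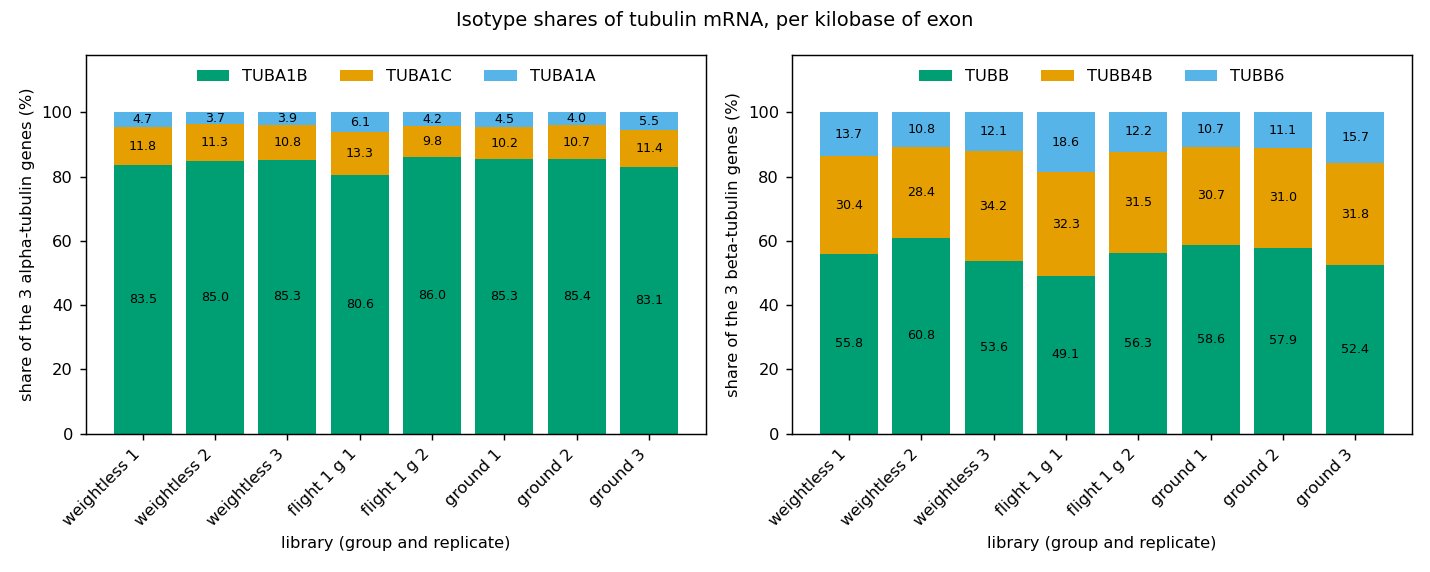
Share (%) of each isotype in the summed level of the 3 alpha-tubulin (left) and 3 beta-tubulin genes (right), per kilobase of exon, in each library. TUBB6 is largest in flight 1 g replicate 1 (18.6%) and ground replicate 3 (15.7%), and 10.7% to 13.7% in the other 6 libraries.

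Space_microg against ground asks what flight without weight does to these genes, with radiation and all other conditions of flight included. None of the 10 members was called. STMN1 averaged 539 ± 99.5 CPM (SD, n = 3) weightless and 445 ± 122 (n = 3) on the ground, a log2 difference of 0.30 ± 0.29 (SE). MAPRE1 averaged 189 ± 5.64 against 173 ± 15.1 CPM, a difference of 0.13 ± 0.13, and TUBA1A 123 ± 20.9 against 139 ± 34.8, a difference of -0.16 ± 0.21. The main tubulins lay closest to 0, with TUBA1B at 0.018 ± 0.22 and TUBB at -0.037 ± 0.19.

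Limma with Benjamini-Hochberg adjustment over 16103 genes gave the members adjusted p-values of 0.877 to 0.993, and it called 0% of all genes; at an unadjusted p under 0.05 there were 0 members and 4.32% of all genes (696). EdgeR also called 0 genes of all (741 at an unadjusted p under 0.05), and DESeq2 called 3, none a member: RBM3, ADCY4 and FBLN5, named here after their values were seen. The groups overlapped for all 10 members, while they did not for 14.4% of all genes tested (7.88% higher and 6.53% lower in space_microg). Estimates were above 0 for 4 members and below for 6, with a median of -0.038, against -0.022 over all genes. The 95% intervals reached from a ratio of 0.640 (TUBA1A) to one of 1.95 (STMN1), so changes of that size cannot be told from none here. Without both libraries that stand apart the STMN1 difference was 0.047 ± 0.18 and the median of the members 0.049; 0 members and 12.8% of all genes had an unadjusted p under 0.05, and limma called 0% of genes.

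Space_1g against ground asks what flight does when weight is restored by spinning. TUBB6 averaged 496 ± 89.4 CPM (n = 2) in the centrifuge and 429 ± 111 (n = 3) on the ground, a log2 difference of 0.23 ± 0.28. STMN1 averaged 384 ± 154 against 445 ± 122 CPM, a difference of -0.23 ± 0.33, TUBA1B 2330.3 ± 568 against 2611 ± 230.1, a difference of -0.18 ± 0.25, and TUBB 1418 ± 302 against 1568 ± 106, a difference of -0.16 ± 0.22. Each of these differences was smaller than its standard error. No member was called in limma (adjusted p 1.00 for all 10), as were 0% of all genes, and 0 members and 1.55% of all genes had an unadjusted p under 0.05 (249 genes, against 227 in edgeR and 327 in DESeq2, which also called 0). All 10 members overlapped, against 10.7% of all genes that did not (4.94% higher and 5.73% lower in space_1g). The median of the members was -0.028, against 0.0061 over all genes.

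Space_1g replicate 1 sets much of this. Without it STMN1 was 0.19, TUBA1B 0.069 and TUBB 0.059 higher in space_1g than on the ground, and the TUBB6 difference was 0.044. Without ground replicate 3 the TUBB6 difference was 0.43. Without both libraries that stand apart TUBA1B was 0.10 ± 0.29, TUBB 0.034 ± 0.25, TUBB6 0.25 ± 0.28 and STMN1 -0.064 ± 0.24, with 0 members and 5.3% of all genes at an unadjusted p under 0.05. Space_1g then holds 1 library, which is assumed to vary like the others.

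Space_microg against space_1g asks what weightlessness adds within flight. STMN1 had the widest difference, 539 ± 99.5 CPM weightless (n = 3) against 384 ± 154 in the centrifuge (n = 2), a log2 difference of 0.53 ± 0.33. TUBB6 was at 410 ± 98.1 against 496 ± 89.4 CPM, a difference of -0.30 ± 0.28, MAP4 at 494 ± 75.9 against 567 ± 57.0, a difference of -0.21 ± 0.18, and TUBA1B at 0.20 ± 0.25. In limma the adjusted p-values of the members were 0.912 to 0.983 and 0% of all genes were called; 0 members and 1.32% of all genes (212) had an unadjusted p under 0.05, against 221 genes in edgeR and 339 in DESeq2, which called 0. MAPRE1 alone among the members did not overlap between the groups (higher in space_microg), and 14.2% of all genes did not (7.24% higher and 6.91% lower), so 1 of 10 is near the background. Its log2 difference was only 0.067 ± 0.14.

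The STMN1 difference was 0.11 ± 0.23 without both libraries that stand apart, and 0.11 without space_1g replicate 1 alone. Without space_1g replicate 2 it was 0.95, with space_1g replicate 1, which stands apart, as the only centrifuge library. TUBA1B and TUBB turned from 0.20 and 0.12 to -0.051 and -0.096 without both libraries, TUBB6 was at -0.11 ± 0.26 and MAP4 at -0.10 ± 0.21. With 1 library left out at a time, TUBB6 ranged from -0.48 (without space_1g replicate 2) to -0.078 (without space_microg replicate 2), and MAP4 from -0.32 (without space_microg replicate 1) to -0.10 (without space_1g replicate 1). With them left out, 0 members and 0.867% of all genes had an unadjusted p under 0.05. The space_microg libraries enter this comparison and the one with ground, so the STMN1 estimates of 0.53 and 0.30 are not independent.

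**Figure D4:**
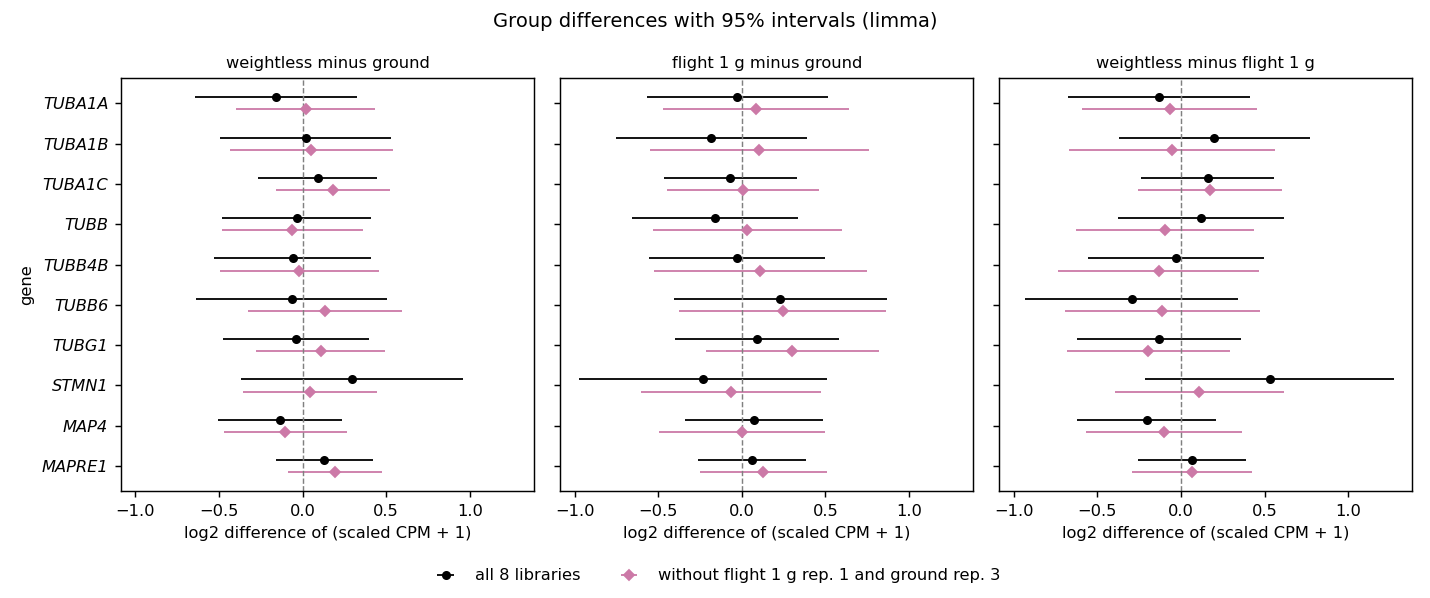
Log2 difference of (scaled CPM + 1) between groups with 95% limma intervals (horizontal axes) for the 10 genes, with all 8 libraries (black circles) and without flight 1 g replicate 1 and ground replicate 3 (pink diamonds). Every interval crosses 0, and that of STMN1 weightless minus flight 1 g runs from -0.21 to 1.27 with all libraries.

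Other genes of the pathway were taken from 8 lists by role. Those named from a list had its smallest unadjusted p-values in a comparison. Their small p-values and clear groups thus follow in part from that choice and are no added evidence. Over all genes tested, space_microg and ground did not overlap for 14.4%, and 4.32% had an unadjusted p under 0.05 in limma. Limma called 0 genes of any list in any comparison, as it called 0 over all genes, so the values here are estimates. Chaperones and cofactors that fold tubulin, with 23 of 23 listed genes tested, had a median log2 difference of 0.091 in space_microg against ground, with 15 estimates above 0 and 8 below. TBCA, a cofactor that binds newly folded beta-tubulin, had 48.7, 56.5 and 67.6 CPM in space_microg, 37.4 and 47.4 in space_1g, and 45.005, 41.0 and 37.3 on the ground. All weightless libraries were above all others, at 0.47 ± 0.18 against ground (unadjusted p = 0.0269, adjusted p = 0.866 in limma) and 0.43 ± 0.20 against space_1g. PFDN4, a subunit of the prefoldin chaperone, had 18.2, 19.0 and 25.5 CPM in space_microg, 7.35 and 18.1 in space_1g, and 17.0, 10.6 and 7.69 on the ground, at 0.83 ± 0.37 and 0.78 ± 0.41. The 2 lowest libraries of both TBCA and PFDN4 were space_1g replicate 1 and ground replicate 3. Without those libraries TBCA was at 0.40 ± 0.17 against ground and 0.26 ± 0.21 against space_1g, PFDN4 was at 0.59 ± 0.24 and 0.18 ± 0.30, and the median of the list against ground was 0.16.

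The gamma-tubulin ring complex, the template for new filaments, had 12 of 12 genes tested and a median of 0.11 in space_microg against ground. Its small subunit MZT1 had 57.3, 71.1 and 80.6 CPM in space_microg, 17.8 and 64.5 in space_1g, and 53.7, 47.1 and 19.3 on the ground, with its 2 lowest values in space_1g replicate 1 and ground replicate 3. Its difference from ground was 0.90 ± 0.50, and 0.45 ± 0.17 without those libraries. TUBGCP6, with the smallest unadjusted p of this list, went the other way, and its groups overlapped. The TUBGCP6 difference was -0.38 ± 0.20, and -0.30 ± 0.18 without those libraries, where the median of the list was 0.099. Among microtubule-associated and end-binding proteins (23 of 25 tested, median -0.049), SLAIN2, a partner of growing ends, had 70.4, 77.4 and 77.1 CPM in space_microg, 70.3 and 78.5 in space_1g, and 64.6, 62.7 and 61.3 on the ground. Both flight groups lay above ground for SLAIN2, by 0.25 ± 0.13 and 0.24 ± 0.14. The 2 differences share the ground libraries. Without both libraries that stand apart they were 0.23 ± 0.13 and 0.30, and the list median in space_microg against ground was -0.040. MAP1S, named from the same list, was lower in space_microg than on the ground, with overlapping groups. The MAP1S difference was -0.54 ± 0.38, and -0.26 ± 0.32 without those libraries.

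Destabilising and severing proteins (12 of 14 tested) had a median of 0.25 in space_microg against ground and 0.070 without both libraries that stand apart. The severing enzyme katanin (KATNA1) had 31.9, 41.2 and 39.8 CPM in space_microg, 27.3 and 34.1 in space_1g, and 27.8, 24.9 and 29.8 on the ground, a difference of 0.43 ± 0.17 against ground with groups that did not overlap (unadjusted p = 0.0357, adjusted p = 0.866 in limma). Among tubulin-modifying enzymes (18 of 18 tested, median -0.11), the deacetylase HDAC6 had 89.0, 86.9 and 88.7 CPM in space_microg, 103 and 98.6 in space_1g, and 104.5, 101.4 and 127 on the ground. Its weightless libraries were below all others, at -0.32 ± 0.13 against ground (unadjusted p = 0.0433, adjusted p = 0.866 in limma). AGTPBP1, which trims glutamates from tubulin tails, was at 0.32 ± 0.15, with 71.7, 87.9 and 82.0 CPM weightless and 60.7, 60.8 and 70.8 on the ground. Without both libraries that stand apart KATNA1 was at 0.49 ± 0.17 and AGTPBP1 at 0.39 ± 0.14 against ground. The median of the tubulin-modifying enzymes was then -0.13. For TBCA, KATNA1, HDAC6 and AGTPBP1 the adjusted p in space_microg against ground ranged over all settings from 0.334 to 0.999.

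Other tubulins (8 of 15 tested) had a median of -0.21 and transport motors (17 of 18 tested) one of -0.095 in space_microg against ground; without both libraries that stand apart the medians were -0.12 and -0.020. The heavy chain of dynein, DYNC1H1, the motor that moves toward the cell centre, had 1634, 1292 and 1082 CPM in space_microg, 2048 and 1533 in space_1g, and 1588, 1607 and 1699 on the ground. In space_microg against ground its difference was -0.31 ± 0.22, and -0.28 ± 0.21 without both libraries that stand apart. The neuronal beta-tubulin TUBB3 was low, at 1.25 to 3.45 CPM. For the gamma-tubulin TUBG2 all weightless libraries were below all others. The TUBG2 difference from ground was -0.21 ± 0.15, and -0.19 ± 0.16 without both libraries that stand apart. Mitotic spindle genes (20 of 20 tested) had 18 estimates above 0 and a median of 0.22 in space_microg against ground, 1 above 0 and -0.29 in space_1g against ground, and 20 above 0 and 0.55 in space_microg against space_1g. Without both libraries that stand apart these medians were -0.046, 0.0064 and -0.080. With all libraries the STMN1 differences had the same signs as the spindle medians, at 0.30 ± 0.29, -0.23 ± 0.33 and 0.53 ± 0.33. Without those 2 libraries they were 0.047 ± 0.18, -0.064 ± 0.24 and 0.11 ± 0.23. Each of these was smaller than its standard error, so their signs are not resolved. Whether STMN1 follows the spindle genes was not tested.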

How the data were processed

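RNA was measured in 8 HMEC-1 libraries, made with a strand-specific total RNA kit that removes ribosomal RNA, per the labels' protocols. The deposited values are a normalised signal per gene that the authors call CPM; per the submitters' processing notes the tools included STAR 2.5.3, CASAVA 1.8.2, edgeR, featureCounts and FastQC, and the builds GRCh38 and hg38, with no roles given. Divided by the worth of 1 read (0.0285 to 0.0398 CPM), 100% of values in each library came out whole within 0.001 read, and reads were recovered. In space_microg replicate 1 the smallest value above 0 came to 3 reads, against 1 in the other 7 libraries, so its depth and its reads in edgeR and DESeq2 rest on the step between low values. Columns summed to 966156 to 1061177, not to 1 total. The test planned for CPM was kept for this scaled CPM.

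Genes with at least 1 CPM in at least 2 libraries were kept (16103 of 16153). Values were analysed as log2(CPM + 1) with limma 3.58.1 (mean trend, all 8 libraries, no covariates, two-sided) in R 4.3.3, with Benjamini-Hochberg adjustment over all genes and a threshold of 0.05. A log2 difference on this scale understates changes of low genes. EdgeR 4.0.16 and DESeq2 1.42.0 were run on recovered reads. Isotype shares were tested by exact permutation with scipy 1.17.1. Within each group the libraries differed beyond counting noise (chi-square per degree of freedom 19.3 to 205). The fit was tested on simulated data with the same dispersion for every gene and no libraries that stand apart. That test therefore does not show the power or error rate of the fit on these libraries. Lengths and transcripts come from GENCODE v29; all 10 symbols matched.

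The members and lists were chosen with earlier results of these data known. Named were the 10 members, the 2 genes of each list with the smallest unadjusted p per comparison (those not described had adjusted p-values of 0.866 to 1.00 in limma), and for TUBA1B, TUBB, STMN1 and MAP4 the 5 genes with the nearest profile, of which 1 is not reported here. Fibroblast and mural markers (5 of 8 listed) summed to 133 to 295 CPM, keratinocyte markers (2 of 5) to 1.63 to 4.63 and melanocyte markers (1 of 3) to 0.552 to 3.35. Alternatives were other pseudocounts (0.25, 4), filters (none, 5 CPM) and scalings (median of ratios, plain totals), only the groups compared, no trend, edgeR, DESeq2, the replicate number as a block, shares per kilobase, libraries left out and, chosen after seeing the data, levels per kilobase of the principal transcript.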

Additional observations from a re-analysis of the deposited data

How the results depend on the processing

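No member passed the threshold under any alternative, while many signs turned. All 36 results held under each of the other pseudocounts, filters and scalings, only the groups compared, or no trend. They were the directions of the 30 member differences and the counts of genes and members called, which stayed at 0. Of the shares and ratios, 12 of 12 kept their direction per kilobase. Per kilobase of the principal transcript, 9 of 10 member levels moved beyond 1 SD. DESeq2 called 3 genes in space_microg against ground, where limma and edgeR called 0. Where a sign turned, the log2 difference, or the share in percentage points, is given here; the cause was not tested. Leaving out both libraries that stand apart, space_microg against ground gave TUBA1A 0.018, TUBB6 0.14, TUBG1 0.11, TUBB share -1.81 and TUBB6 share 1.74. Leaving out both libraries that stand apart, space_1g against ground gave TUBA1A 0.084, TUBA1B 0.10, TUBA1C 0.0077, TUBB 0.034, TUBB4B 0.11, TUBA1B share 0.76 and alpha to beta ratio 0.0069. Leaving out both libraries that stand apart, space_microg against space_1g gave TUBA1B -0.051, TUBB -0.096 and TUBA1B share -1.71. In edgeR, space_microg against ground gave TUBB 0.0026, TUBB4B 0.0080 and TUBG1 7.2e-05. In edgeR, space_microg against space_1g gave TUBB4B 0.021. In DESeq2, space_microg against space_1g gave TUBB4B 0.0045. With the replicate block, space_1g against ground gave TUBA1A 0.092, TUBA1C 0.0092 and TUBB4B 0.085.

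With 1 library left out at a time, 17 of 30 member differences turned sign under at least 1 omission. In space_microg against ground the ranges were -0.35 to 0.018 for TUBA1A, -0.085 to 0.097 for TUBA1B, -0.11 to 0.043 for TUBB, -0.25 to 0.13 for TUBB4B, -0.19 to 0.15 for TUBB6, -0.19 to 0.11 for TUBG1, -0.95 to 0.44 for TUBA1B share, -1.81 to 1.81 for TUBB share and -1.59 to 1.74 for TUBB6 share. In space_1g against ground the ranges were -0.22 to 0.15 for TUBA1A, -0.43 to 0.069 for TUBA1B, -0.15 to 0.022 for TUBA1C, -0.38 to 0.059 for TUBB, -0.13 to 0.073 for TUBB4B, -0.65 to 0.19 for STMN1, -0.031 to 0.17 for MAP4, -4.41 to 1.56 for TUBA1B share, -8.48 to 0.10 for TUBB share and -0.37 to 7.96 for TUBB6 share. In space_microg against space_1g the ranges were -0.22 to 0.016 for TUBA1A, -0.051 to 0.45 for TUBA1B, -0.096 to 0.34 for TUBB, -0.22 to 0.16 for TUBB4B and -1.71 to 4.26 for TUBA1B share.

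Whether the replicate numbers pair the libraries cannot be told here. In deviations from group means, same-numbered libraries correlated at -0.678 to 0.679, and 3 of 8 correlated best with their own number. The 2 space_1g libraries deviate from their mean by equal and opposite amounts, so their correlations mirror each other and some must be negative. With the block, TUBB6 in space_microg against space_1g was at -0.45 (unadjusted p = 0.0467, adjusted p = 0.596 in limma). The fit with the replicate block called 0 genes in each comparison. It had 1013, 759 and 850 genes at an unadjusted p under 0.05 in limma, against 696, 249 and 212 without the block. Counting error is small beside the intervals printed for the members, which come from 3, 2 and 3 libraries. Where space_1g keeps 1 library, it is assumed to vary like the others.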
